A study of Rattus norvegicus with 12 samples.

Results

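Fatty acid and triglyceride synthesis in rat liver was followed through 10 genes: Srebf1, Thrsp, Acly, Me1, Acaca, Fasn, Elovl6, Scd, Gpam and Lpin1. Every array probe whose gene name in the scanner files is one of these symbols was taken (Scd1 accepted for Scd), which gave 17 of 41012 probes. Of these, 15 probes of 9 genes were bright enough to be tested, among 28173 such probes in all. All animals were adrenalectomized Sprague-Dawley rats aged 8 to 10 weeks, so vehicle animals lacked their own adrenal glucocorticoids too. The 4 groups were male dexamethasone, male vehicle, female dexamethasone and female vehicle, with 3 single-colour Agilent arrays each. Dexamethasone, a synthetic glucocorticoid, was given intraperitoneally at 1 mg/kg, vehicle was phosphate buffered saline, and liver was taken 6 h later. The females were at the cycle stage that the labels write as Distrous 1 (diestrus). RNA of 3 animals was pooled for an array (9 animals in a group), and the p-values therefore measure the spread between pools of whole liver, not between animals.

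Liver cells make fatty acids from citrate that leaves the mitochondria: ATP citrate lyase (Acly) splits it to acetyl-CoA, acetyl-CoA carboxylase 1 (Acaca) turns that into malonyl-CoA, and fatty acid synthase (Fasn) builds palmitate, with NADPH supplied in part by malic enzyme (Me1). Palmitate is lengthened by Elovl6, desaturated by stearoyl-CoA desaturase (Scd) and joined to glycerol 3-phosphate by the acyltransferase that Gpam encodes, after which lipin 1 (Lpin1) removes the phosphate to give diacylglycerol, the direct precursor of triglyceride. The transcription factor SREBP-1, the product of Srebf1, turns on most of these genes in response to insulin, and Thrsp (Spot 14) is a thyroid hormone-responsive nuclear protein of lipogenic tissue. Lpin1 is also known as a glucocorticoid-induced gene of liver.

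Each value reports hybridization to a probe of 60 bases, and the following 6 sequences were copied from the scanner files. Those of Gpam and Thrsp are the probes that stand for their genes in the results described here. For Lpin1, Srebf1, Acaca and Elovl6 the sequence is that of the second, dimmer tested probe, and not of the brightest probe that stands for the gene.
Lpin1 probe A_44_P466700: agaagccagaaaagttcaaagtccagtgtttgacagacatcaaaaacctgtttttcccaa
Srebf1 probe A_44_P501142: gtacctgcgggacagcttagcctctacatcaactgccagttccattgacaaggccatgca
Gpam probe A_44_P242969: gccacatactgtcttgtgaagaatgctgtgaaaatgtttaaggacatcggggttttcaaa
Acaca probe A_42_P489761: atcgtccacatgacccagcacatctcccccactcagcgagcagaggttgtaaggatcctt
Elovl6 probe A_44_P428691: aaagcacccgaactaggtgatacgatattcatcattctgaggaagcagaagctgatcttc
Thrsp probe A_43_P11520: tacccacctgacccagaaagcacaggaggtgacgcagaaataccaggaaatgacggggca
A probe of this kind reads the RNA at 1 place and was not assigned here to a splice form.

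The starts of the genes with the largest changes up and down, Lpin1 and Srebf1, are shown next because glucocorticoid receptor and SREBP-1 partner sites near a start are commonly looked for in these genes. The windows are from RefSeq, build GRCr8, and run from 250 bases before to 50 bases after the listed start. Capitals in the Lpin1 window mark the glucocorticoid receptor half-site AGAACA or its reverse complement TGTTCT, and capitals in both Srebf1 windows mark the NF-Y box CCAAT or its reverse complement ATTGG.
Lpin1 promoter window (chr6:45108893-45109192, minus strand): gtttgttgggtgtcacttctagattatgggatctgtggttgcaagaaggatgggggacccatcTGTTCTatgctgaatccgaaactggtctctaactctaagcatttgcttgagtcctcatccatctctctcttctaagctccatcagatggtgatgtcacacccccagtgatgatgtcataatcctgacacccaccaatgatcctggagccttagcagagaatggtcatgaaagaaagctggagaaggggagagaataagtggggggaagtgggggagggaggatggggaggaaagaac
Srebf1 promoter window (chr10:45529115-45529414, minus strand): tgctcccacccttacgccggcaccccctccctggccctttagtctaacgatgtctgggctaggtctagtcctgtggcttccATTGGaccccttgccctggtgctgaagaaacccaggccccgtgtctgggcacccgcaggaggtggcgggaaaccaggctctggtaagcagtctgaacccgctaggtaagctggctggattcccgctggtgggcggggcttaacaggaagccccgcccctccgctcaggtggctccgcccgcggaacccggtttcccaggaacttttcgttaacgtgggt
Srebf1 promoter window (chr10:45518961-45519260, minus strand): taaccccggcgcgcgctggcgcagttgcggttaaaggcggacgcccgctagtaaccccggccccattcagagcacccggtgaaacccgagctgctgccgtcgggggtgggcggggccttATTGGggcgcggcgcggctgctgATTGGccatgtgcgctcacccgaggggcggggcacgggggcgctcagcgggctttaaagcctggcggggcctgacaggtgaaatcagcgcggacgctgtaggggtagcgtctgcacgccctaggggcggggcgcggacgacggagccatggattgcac
Windows were listed for 7 of the 10 genes (8 windows, 2 of them for Srebf1), and both strands were searched. The half-site occurred in 1 of the 8 windows, that of Lpin1, where it begins 187 bases before the start, and in 20.7% of all 33469 windows. The full palindromic glucocorticoid response element, which contains the half-site, was in 0 of the 8 windows and in 0.0149% of all. The sterol regulatory element TCACNCCAC was in 0 of the 8 windows and in 1.12% of all, and the E-box CACGTG in 0 of the 8 and in 6.42% of all. CCAAT was found in 6 of the 8 windows, of Srebf1, Acly, Gpam, Lpin1 and Thrsp, against 37.5% of all windows, and the GC box GGGCGG in 5 of the 8, of Srebf1, Acly, Me1 and Thrsp, against 33.1% of all. These matches describe the letters in the windows only.

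Levels are normalised log2 intensities, that is, the log2 of the scanner software's processed signal minus the 75th percentile of that array, and differences are log2 differences of group means ± SE with 3 arrays per group. A level of 0 is the 75th percentile, and levels of different probes cannot be set against each other. Calls were made in a limma model of all 4 groups where the p, adjusted by Benjamini and Hochberg over 28173 probes, was under 0.05, and the brightest probe stood for its gene. Between 53.0% and 69.7% of an array's probes were well above background, and the number of arrays limits the precision. The 12 arrays lay on 5 slides. Slide 5 held replicate 3 of every group and was dimmer (53.0% to 61.8% well above background, against 62.7% to 69.7% on the other 8 arrays). Slide 1 held male dexamethasone 1 and male vehicle 2. Slide 2 held male dexamethasone 2 and female vehicle 1 and 2, slide 3 male vehicle 1, and slide 4 female dexamethasone 1 and 2. The male effect can thus be read within slides 1 and 5, and the female effect and sex differences within slide 5 alone. These readings rest on 1 array per group and have no test. Outside slide 5, no slide held both treatments in females or both sexes at equal treatment. There these differences cannot be told apart from differences between slides. The known glucocorticoid targets Fkbp5 and Tsc22d3 rose by 4.16 ± 0.18 and 3.20 ± 0.24 in males and by 4.54 ± 0.20 and 2.84 ± 0.24 in females (limma, adjusted p at most 3.73e-05), and Per1 and Tat rose in both sexes as well.

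The liver label was checked against marker lists, as sums of linear signal relative to the 75th percentile. All 10 hepatocyte markers passed the filter, and their sums ran from 5827 to 7405 in male dexamethasone, 4114 to 7655 in male vehicle, 7213 to 7942 in female dexamethasone and 5739 to 7399 in female vehicle arrays. Adipocytes also make fat; of 7 adipocyte markers 4 passed, with Cfd well above background on 12 of 12 arrays, Lipe on 11 by its better probe, Fabp4 on 8, Retn on 3, Plin1 on 1 and Adipoq and Lep on 0, and the sums were 4.20 to 6.01 in male dexamethasone, 5.44 to 9.46 in male vehicle, 4.86 to 6.97 in female dexamethasone and 5.97 to 12.4 in female vehicle arrays. Sums of 8 bile duct markers did not overlap between treatments, at 75.4 to 130 in male dexamethasone against 245 to 348 in male vehicle arrays and 141 to 171 in female dexamethasone against 381 to 690 in female vehicle arrays. The same held for the 6 of 8 endothelial markers that passed (23.6 to 31.7 against 35.6 to 48.7 in males, and 10.9 to 25.6 against 43.1 to 70.0 in females, dexamethasone before vehicle). Sums of 8 stellate cell markers did not overlap in females (25.9 to 49.0 after dexamethasone, 51.0 to 69.5 after vehicle), and those of the 6 of 8 exocrine pancreas markers that passed did not overlap in males (136 to 156 after dexamethasone, 192 to 236 after vehicle). Macrophage and erythroid marker sums overlapped between treatments in both sexes. A sum follows its brightest markers, and the single markers were also tested (limma). Of 8 bile duct markers 2 were called lower in each sex, of 8 stellate cell markers 3, and 0 of either list higher. Of 6 endothelial markers 1 was higher and 0 lower in males, and 1 higher and 1 lower in females. Of 6 exocrine pancreas markers 0 were called in males and 1 was lower in females. Hepatocyte markers had 1 of 10 lower in males, and 1 higher and 1 lower in females. Among 4 adipocyte markers 0 were called in males and 1 was higher in females. Macrophage markers had 0 of 8 called in either sex. Erythroid markers had 1 of 5 lower in males and 2 of 5 lower in females. Of all probes 19.7% were called in males and 23.8% in females. The part of these shifts in the lipogenic genes was not tested, and in whole liver fewer cells of a type and less RNA per cell cannot be told apart.

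After dexamethasone the lipogenic genes did not move together. In males Lpin1 rose, Srebf1, Me1 and Gpam fell, and the other 5 tested genes were not called. In females Lpin1 and Acaca rose and none of the 9 tested genes was called lower (limma; 1 of the 9, Me1, was lower at an unadjusted p under 0.05 and was called under some alternatives). The female Acaca call was lost in 14 of 25 alternatives, and the male calls of Me1 and Gpam in 4 and 5 of 25. Those of Lpin1 and Srebf1 were lost in 0. The Acaca difference was similar in the sexes, at 0.91 in females and 0.84 in males. Of all probes, 19.7% were called in males (9.13% higher, 10.6% lower) and 23.8% in females (11.9% higher, 11.9% lower), against 4 of 9 genes (1 higher, 3 lower) and 2 of 9 (2 higher, 0 lower). Counted by probe, 2 of 15 were higher and 4 lower in males, and 4 were higher and 0 lower in females. The median log2 difference of the 9 genes was -0.49 in males and -0.14 in females, beside 0.00 and -0.05 over all probes. The plot of the dexamethasone effect shows both sexes side by side. Groups did not overlap for 6 genes in males, with Lpin1, Acaca and Elovl6 higher and Srebf1, Me1 and Gpam lower, and for 4 in females, with the same 3 higher and Fasn lower, beside 35% of all probes in males (16.5% higher, 18.5% lower) and 42.7% in females (20.9% higher, 21.9% lower).

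**Figure D1:**
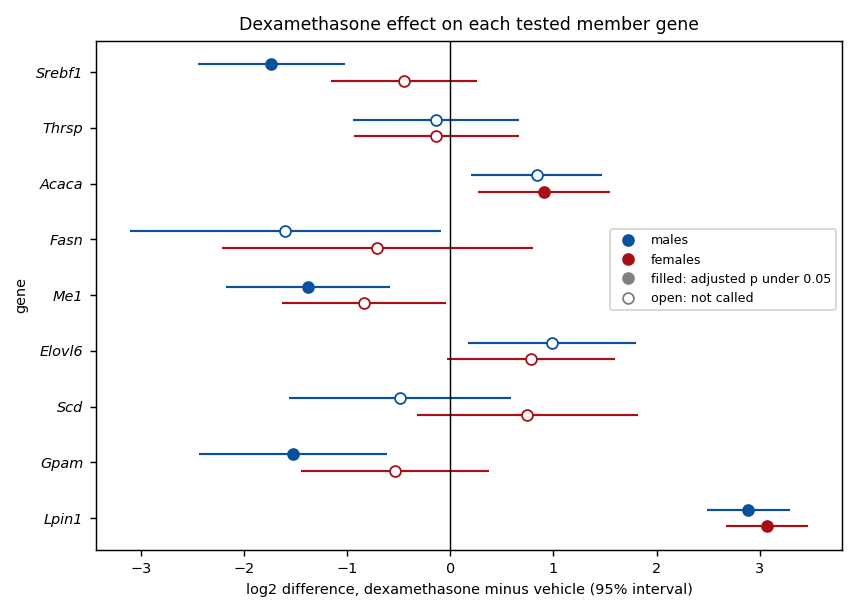
Log2 difference of dexamethasone minus vehicle for the brightest probe of each of the 9 tested genes, with the 95% interval as a line, males in blue above females in red; filled points passed the adjusted p of 0.05. Lpin1 stands alone near 3 in both sexes, the male points of Srebf1, Me1 and Gpam lie between -1.74 and -1.38, and the intervals of Fasn are the widest.

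Srebf1, whose product drives the pathway, fell after dexamethasone in males. Its brightest probe, A_44_P178448, had normalised log2 levels of 3.78, 3.51 and 3.71 on the male dexamethasone arrays, against 6.22, 5.08 and 4.90 on the male vehicle arrays. All 3 dexamethasone values lay below all 3 vehicle values, and male vehicle 1 stood above its group. The difference was -1.74 ± 0.32 (limma, adjusted p = 0.00371), a 3.33-fold lower level, and -1.24 with slide as a fixed block (adjusted p = 0.0112), -1.30 within slide 1 and -1.19 within slide 5. Without male vehicle 1 it was -1.33, and the call was kept in all 25 alternatives that gave a test (highest adjusted p 0.0286). A second Srebf1 probe, A_44_P501142 gave -1.75 ± 0.30 (adjusted p = 0.00251), and -1.45 with the slide block. In females the brightest probe had 5.19, 4.49 and 4.56 after dexamethasone against 5.08, 5.16 and 5.35 after vehicle. The female groups overlapped through dexamethasone array 1, and the difference was -0.45 ± 0.32 (adjusted p = 0.339), with -0.77 under the slide block (adjusted p = 0.15) and -0.78 within slide 5. The second probe gave -0.25 ± 0.30 in females (adjusted p = 0.582). Another probe, A_42_P667564, was well above background on 1 of 12 arrays and was not tested.

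The sexes could not be shown to differ in their Srebf1 response. The female minus male effect was 1.29 ± 0.45 (95% interval 0.28 to 2.29, unadjusted p = 0.0171, limma adjusted p = 0.426) for the brightest probe and 1.49 ± 0.43 (adjusted p = 0.337) for the second. It was 0.47 with the slide block and 0.41 within slide 5 for the brightest probe, and 1.33 and 1.46 for the second. The second probe thus kept a larger value than the brightest once slide was taken into account.

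Thrsp, the other regulator, was not called in either sex. Its levels were 6.50, 5.86 and 6.39 in male dexamethasone against 7.28, 6.38 and 5.52 in male vehicle arrays, and 6.64, 6.73 and 6.48 in female dexamethasone against 6.83, 6.65 and 6.77 in female vehicle arrays. The groups overlapped in both sexes, with male vehicle spread over the whole range seen. The differences were -0.14 ± 0.36 in males (95% interval -0.94 to 0.66, adjusted p = 0.849) and -0.14 ± 0.36 in females (-0.94 to 0.67, adjusted p = 0.817). Within slide 5 the male difference was 0.87 and within slide 1 it was 0.12.

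Acly could not be tested. Its 1 probe, A_44_P1004037, was flagged by the scanner software as uneven on 8 of 12 arrays, and the same 8 values are missing from the authors' deposited table. The usable levels were 6.65 on male dexamethasone 3, 6.80 and 6.17 on female dexamethasone 1 and 3, and 6.82 on female vehicle 3. With the flagged spots kept, an alternative added after seeing the data, the difference was -0.37 ± 0.39 in males (adjusted p = 0.592) and -0.52 ± 0.39 in females (adjusted p = 0.359).

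Me1, the cytosolic malic enzyme, fell in males. Probe A_42_P792817 had 3.91, 3.86 and 2.78 in male dexamethasone against 5.24, 5.01 and 4.44 in male vehicle arrays. The groups did not overlap, and the slide 5 array was the lowest in both. The difference was -1.38 ± 0.36 (adjusted p = 0.0207), with -1.34 under the slide block (adjusted p = 0.007), -1.11 within slide 1 and -1.66 within slide 5. The call ended without male dexamethasone 3 (-1.01, adjusted p = 0.0665), without male vehicle 1 (-1.21, adjusted p = 0.0715) and without male vehicle 2 (-1.32, adjusted p = 0.0629). In females the levels were 3.03, 3.47 and 2.64 after dexamethasone against 4.12, 4.09 and 3.45 after vehicle, which overlapped by a narrow margin. The female difference was -0.84 ± 0.36 (adjusted p = 0.117), and -0.85 without the 4 slide 5 arrays, where it was called (adjusted p = 0.0228). The other Me1 probe, A_43_P11481, was not called in either sex and differed in sign between them, at -0.62 ± 0.42 in males and 0.34 ± 0.42 in females.

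Acaca, the enzyme that commits acetyl-CoA to fatty acid synthesis, was higher after dexamethasone in both sexes and was called in females alone. Probe A_44_P514379 had 6.65, 6.53 and 6.28 in female dexamethasone against 5.82, 5.25 and 5.67 in female vehicle arrays. In males it had 6.74, 6.42 and 6.27 after dexamethasone against 6.11, 5.84 and 4.97 after vehicle. The groups did not overlap in either sex. The difference was 0.91 ± 0.29 in females (adjusted p = 0.0435) and 0.84 ± 0.29 in males (adjusted p = 0.0678), and the difference between the sexes was 0.07 ± 0.41 (adjusted p = 0.958). With slide as a block the female value was 0.72 (adjusted p = 0.17) and the male value 1.16 (adjusted p = 0.014), within slide 5 they were 0.61 and 1.30, and within slide 1 the male value was 0.90. The female call was lost in 14 of 25 alternatives that gave a test, among them the removal of any 1 of the 6 female arrays (0.74 to 1.03, adjusted p 0.0569 to 0.148) or of male dexamethasone 1 or 2 or male vehicle 2 (adjusted p 0.0502 to 0.0589). The male difference was 1.07 without male vehicle 1 (adjusted p = 0.0341) but 0.50 without male vehicle 3 (adjusted p = 0.197). The second probe, A_42_P489761, gave 0.55 ± 0.28 in females (adjusted p = 0.174) and 0.52 ± 0.28 in males (adjusted p = 0.232).

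Fasn, which carries out the chain-building reactions, had the largest standard error of the 9 tested genes and was not called in either sex. Probe A_44_P235978 had 4.24, 4.07 and 2.82 in male dexamethasone against 6.78, 5.65 and 3.50 in male vehicle arrays. Male vehicle 3 lay below male dexamethasone 1 and 2, so the male groups overlapped, and the slide 5 array was the lowest in each. The difference was -1.60 ± 0.68 in males (95% interval -3.11 to -0.09, adjusted p = 0.135), with -0.86 under the slide block (adjusted p = 0.112), -1.41 within slide 1 and -0.69 within slide 5. The value rested on single male vehicle arrays: it was -0.86 without male vehicle 1 (adjusted p = 0.381) and -2.50 without male vehicle 3 (adjusted p = 0.00604). Without the 4 slide 5 arrays, an omission chosen after seeing the data, it was -2.06 (adjusted p = 0.017). In females the levels were 4.99, 5.18 and 4.67 after dexamethasone against 5.95, 5.52 and 5.50 after vehicle. All 3 female dexamethasone values lay below all 3 vehicle values, with a difference of -0.71 ± 0.68 (adjusted p = 0.484) in the fit, whose SE is shared by the 4 groups. The second Fasn probe, A_44_P235985, gave -1.27 ± 0.57 in males (adjusted p = 0.154) and -0.45 ± 0.57 in females (adjusted p = 0.6).

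**Figure D2:**
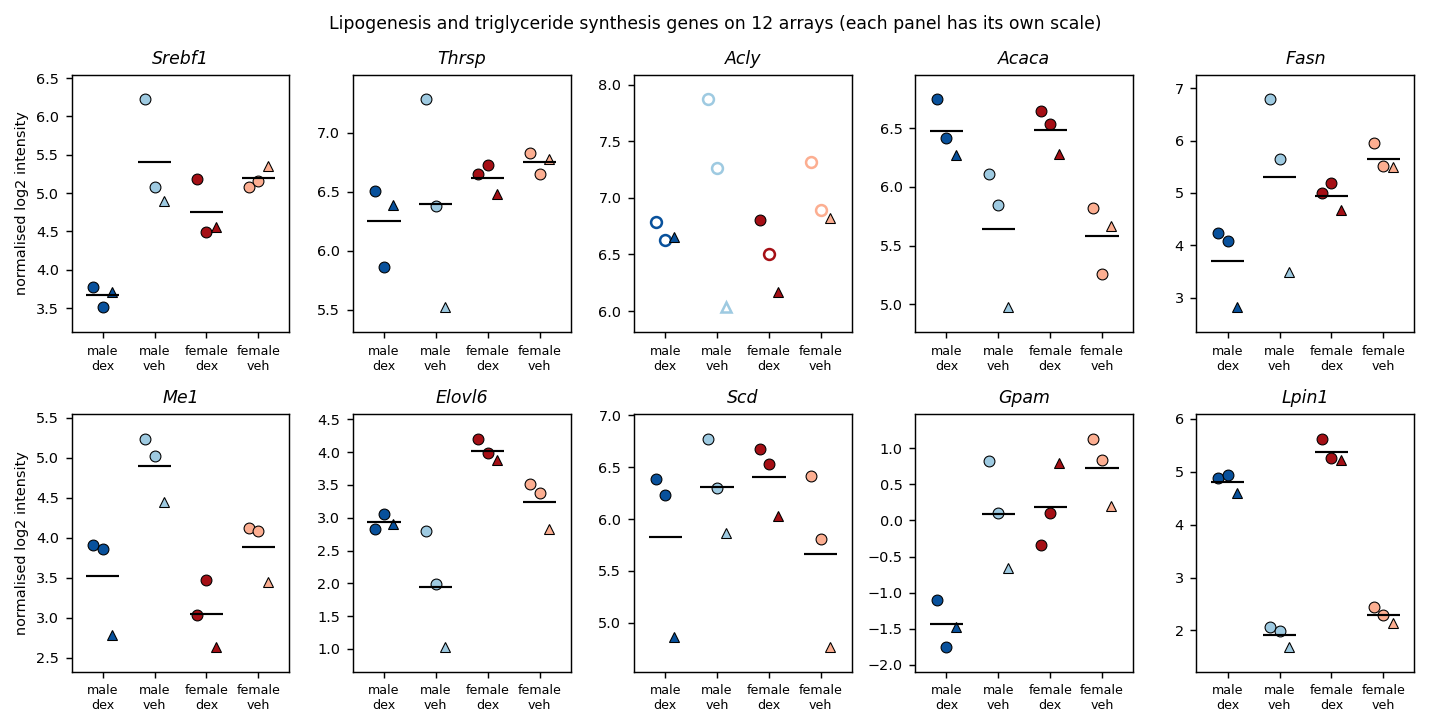
Normalised log2 intensity (vertical axis, own scale per panel) of the brightest probe of each of the 10 genes on every array, by group; bars are group means, triangles are the slide 5 arrays, and open points in the Acly panel are flagged spots. Lpin1 separates by treatment in both sexes, Srebf1 is lowest on the 3 male dexamethasone arrays, and in Fasn the male slide 5 arrays lie at 2.82 and 3.50.

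Elovl6, the elongase acting on palmitate, was higher after dexamethasone by both of its probes in both sexes, but passed the test only with 1 probe in females. Probe A_42_P836392 had 2.83, 3.05 and 2.90 in male dexamethasone against 2.79, 1.99 and 1.03 in male vehicle arrays, and 4.20, 3.98 and 3.88 in female dexamethasone against 3.51, 3.38 and 2.83 in female vehicle arrays. The treatments did not overlap in either sex, by a narrow gap in males. The differences were 0.99 ± 0.37 in males (adjusted p = 0.0887) and 0.78 ± 0.37 in females (adjusted p = 0.15). Under the slide block they were 1.32 (adjusted p = 0.0118) and 0.99 (adjusted p = 0.102), within slide 5 they were 1.86 and 1.05, and within slide 1 the male value was 0.84. The male value was 1.42 without male vehicle 1 (adjusted p = 0.0117) but 0.54 without male vehicle 3 (adjusted p = 0.251) and 0.55 without the 4 slide 5 arrays (adjusted p = 0.244). The female adjusted p ran from 0.0495, without male vehicle 3, to 0.324 over the alternatives. The dimmer probe, A_44_P428691, gave 0.90 ± 0.29 in males (adjusted p = 0.0503) and 1.30 ± 0.29 in females (adjusted p = 0.00867); the female call was kept in all 24 alternatives that gave a test (highest adjusted p 0.0349), and the male value was called in 10 of 24.

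Scd, the desaturase, was not called in either sex. Its levels were 6.38, 6.23 and 4.86 in male dexamethasone against 6.77, 6.30 and 5.87 in male vehicle arrays, and 6.67, 6.53 and 6.03 in female dexamethasone against 6.42, 5.81 and 4.77 in female vehicle arrays. The groups overlapped in both sexes, and the slide 5 array was the lowest in each of the 4 groups. The difference was -0.49 ± 0.48 in males (95% interval -1.56 to 0.58, adjusted p = 0.564) and 0.75 ± 0.48 in females (-0.33 to 1.82, adjusted p = 0.292). Within slide 1 the male value was 0.09 and within slide 5 it was -1.01, and the female value within slide 5 was 1.26. Leaving out 1 array moved the male value to between -0.77 and -0.005 and the female value to between 0.30 and 1.12, with no call.

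Gpam, the mitochondrial glycerol 3-phosphate acyltransferase that starts glycerolipid assembly, fell in males. Its probe A_44_P242969 had -1.10, -1.75 and -1.47 in male dexamethasone against 0.82, 0.10 and -0.66 in male vehicle arrays. The male groups did not overlap. The difference was -1.53 ± 0.41 (adjusted p = 0.0247), a 2.88-fold lower level, with -1.15 under the slide block (adjusted p = 0.031), -1.20 within slide 1 and -0.82 within slide 5. The call ended without male dexamethasone 2 (-1.37, adjusted p = 0.0833), male dexamethasone 3 (-1.51, adjusted p = 0.0666), male vehicle 1 (-1.16, adjusted p = 0.0834) or male vehicle 2 (-1.52, adjusted p = 0.0634). Female levels were -0.34, 0.11 and 0.80 after dexamethasone against 1.13, 0.84 and 0.20 after vehicle and overlapped. The female difference was -0.53 ± 0.41 (adjusted p = 0.376), and its sign turned with the slide block (0.31) and within slide 5 (0.60), while it was -1.10 without the 4 slide 5 arrays (adjusted p = 0.0569).

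Lpin1, which makes diacylglycerol and whose protein also acts as a transcriptional coactivator, rose in both sexes and was the largest change among these genes. Probe A_44_P191309 had 4.88, 4.94 and 4.60 in male dexamethasone against 2.07, 1.99 and 1.69 in male vehicle arrays. In females it had 5.62, 5.26 and 5.22 after dexamethasone against 2.45, 2.29 and 2.15 after vehicle. The treatments lay far apart in both sexes, with no overlap. The rise was 7.41-fold in males (2.89 ± 0.18, adjusted p = 7.06e-06) and 8.41-fold in females (3.07 ± 0.18, adjusted p = 4.29e-06). The slide block gave 2.92 and 3.11, within slide 5 it was 2.90 and 3.07, and within slide 1 the male value was 2.90. The second probe, A_44_P466700, gave 2.85 ± 0.38 in males and 3.17 ± 0.38 in females (adjusted p = 5.04e-04 and 2.64e-04). The female minus male effect was 0.18 ± 0.26 with a 95% interval of -0.39 to 0.75 (adjusted p = 0.818).

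Where a gene had a second tested probe, the plot of probe pairs sets its differences against those of the brightest probe. Lpin1, Srebf1, Elovl6, Acaca and Fasn had the same sign by both probes in both sexes. Me1 had opposite signs in females, and its dimmer probe was not called in males.

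**Figure D3:**
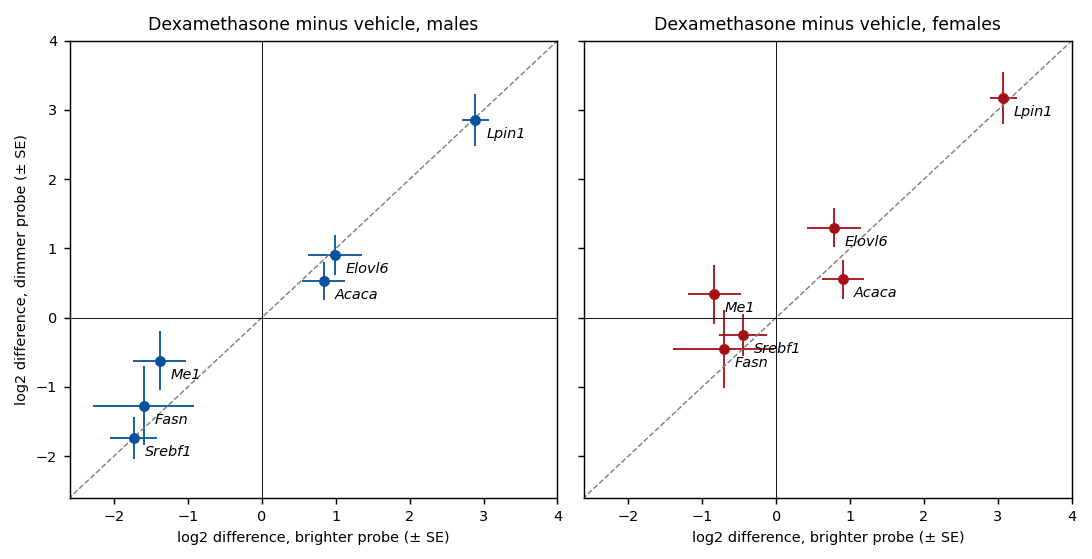
Log2 difference of dexamethasone minus vehicle for the brighter (horizontal) and dimmer (vertical) tested probe of 6 genes, with SE as bars, males left and females right; the dashed line marks equal values. Lpin1 and the male Srebf1 values lie near the line, and the female Me1 point lies above it at -0.84 and 0.34.

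Fewer calls were made between the sexes at equal treatment. Of all probes 2.23% differed between female and male dexamethasone livers (1.27% higher, 0.958% lower). Between female and male vehicle livers 1.67% differed (0.731% higher, 0.937% lower). By their brightest probe, 0 of the 9 genes were called in either comparison (limma). At an unadjusted p under 0.05 there were 4 genes after dexamethasone and 2 after vehicle. The shares of all probes above are at the adjusted p, and none is given for the unadjusted p. The dimmer Elovl6 probe was higher in females after dexamethasone, at 0.66, 0.49 and 0.45 in female dexamethasone against -0.86, -1.02 and -1.08 in male dexamethasone arrays. These groups lay far apart, with a difference of 1.52 ± 0.29 (adjusted p = 0.0227), 1.76 with the slide block (adjusted p = 0.0318) and 1.53 within slide 5. The call ended when any 1 of these 6 arrays was left out (1.46 to 1.58, adjusted p 0.058 to 0.0904). After vehicle the same probe had -0.59, -0.57 and -1.14 in females against -1.34, -1.74 and -2.59 in males, without overlap, and a difference of 1.12 ± 0.29 (adjusted p = 0.104). The brightest Elovl6 probe gave 1.09 ± 0.37 after dexamethasone (adjusted p = 0.184) and 1.30 ± 0.37 after vehicle (adjusted p = 0.156), also without overlap. The vehicle difference was called with slide as a random block for both probes (1.39, adjusted p = 0.0447, and 1.23, adjusted p = 0.0212) and without male vehicle 1 (1.73, adjusted p = 0.025, and 1.39, adjusted p = 0.0428), and with normexp for the dimmer one (0.67, adjusted p = 0.0379). Without male vehicle 3 the brightest probe gave 0.85 (adjusted p = 0.297).

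Female levels lay above all male levels after dexamethasone for 5 of the 9 genes, namely Srebf1, Fasn, Elovl6, Gpam and Lpin1, beside 11% of all probes in that direction, 11.8% in the other and 22.8% in either. The log2 differences were 1.08 ± 0.32 for Srebf1 (adjusted p = 0.133), 1.24 ± 0.68 for Fasn (adjusted p = 0.432), 1.63 ± 0.41 for Gpam (adjusted p = 0.0793) and 0.56 ± 0.18 for Lpin1 (adjusted p = 0.167). Under the slide block they were 0.87, 1.75, 2.59 and 0.60, of which Gpam was called (adjusted p = 0.0337). The second Srebf1 probe gave 1.18 ± 0.30 (adjusted p = 0.0826) and was called in 6 of 23 alternatives that gave a test, among them slide as a fixed block (1.42, adjusted p = 0.0309) and as a random block (1.26, adjusted p = 0.0212). The brightest Srebf1 probe was called with normexp background correction (1.16, adjusted p = 0.0394) and without male vehicle 1 (adjusted p = 0.0294). After vehicle the sexes did not overlap for 3 of the 9 genes, with Elovl6 and Lpin1 higher and Me1 lower in females, beside 7.24% of all probes higher, 8.18% lower and 15.4% in either direction. Me1 had 4.12, 4.09 and 3.45 in female vehicle against 5.24, 5.01 and 4.44 in male vehicle arrays, a difference of -1.01 ± 0.36 (limma, adjusted p = 0.312). By the second probes the sexes after dexamethasone did not overlap for Srebf1, Fasn and Elovl6 either, but overlapped for Lpin1. After vehicle they did not overlap by the second Elovl6 probe, but overlapped by those of Lpin1 and Me1.

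No lipogenic gene was called for a different dexamethasone effect in the sexes (limma), in a contrast where 0.0248% of all probes, 7 in number, were called (0.0106% higher, 0.0142% lower). By an unadjusted p under 0.05 there was 1 of 9, Srebf1, with no share of all probes given at that p. The female minus male effects of the 9 genes ran from -0.21 for Elovl6 to 1.29 for Srebf1, with a median of 0.54 beside -0.02 over all probes. The 4 groups enter this contrast together, so it shares its arrays with each sex's own effect.

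The wider pathway was described with 5 lists of genes, of which 69 of 76 had a tested probe. In males 9 were higher and 16 lower, and in females 14 were higher and 14 lower, with medians of -0.18 and -0.03, where 19.7% and 23.8% of all probes were called. By direction, 9.13% of all probes were higher and 10.6% lower in males, and 11.9% were higher and 11.9% lower in females. The counts of the single lists below are to be read beside the same shares. With slide as a fixed block the counts were 11 higher and 22 lower in males and 6 higher and 5 lower in females, where 25.6% and 12.8% of all probes were called. The strip plot of the 5 lists shows the spread of these values.

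Among the 21 genes that control lipogenesis, 4 were higher and 4 lower in males and 5 higher and 3 lower in females. Mid1ip1, a close relative of Thrsp whose product helps acetyl-CoA carboxylase to form filaments, had 3.28, 2.48 and 2.59 in male dexamethasone against 5.97, 4.93 and 4.64 in male vehicle arrays, and 3.12, 3.03 and 2.76 in female dexamethasone against 4.64, 4.89 and 4.50 in female vehicle arrays. The treatments did not overlap in either sex, and Mid1ip1 fell by 2.40 ± 0.33 in males (adjusted p = 6.72e-04) and by 1.71 ± 0.33 in females (adjusted p = 0.00451). Insig2, which holds SREBP precursors in the endoplasmic reticulum, had 2.07, 1.63 and 1.74 in male dexamethasone against 4.05, 3.77 and 3.54 in male vehicle arrays. In females it had 3.20, 2.99 and 3.48 after dexamethasone against 3.28, 3.38 and 1.99 after vehicle. The male groups lay apart and the female groups overlapped: Insig2 fell by 1.97 ± 0.34 in males (adjusted p = 0.00239), against a value of 0.34 ± 0.34 in females (adjusted p = 0.494), and the female minus male effect was 2.32 ± 0.48 (95% interval 1.26 to 3.37, adjusted p = 0.186). Ppargc1b, a coactivator of SREBP-1, rose by 2.23 ± 0.43 in males and 2.21 ± 0.43 in females, and Foxo1, a forkhead factor restrained by insulin, by 0.91 ± 0.19 and 1.11 ± 0.19. Irs2, an insulin receptor substrate, fell by 2.24 ± 0.28 in females (adjusted p = 3.76e-04) and by 0.92 ± 0.28 in males (adjusted p = 0.0441), where the call was lost in 18 of 25 alternatives (adjusted p up to 0.221). Pparg fell by 1.18 ± 0.35 in males (adjusted p = 0.0387; lost in 11 of 25 alternatives, up to 0.131) and was -0.13 in females.

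Of 12 tested genes that supply substrate, 1 was higher and 4 lower in males and 2 were higher and 2 lower in females. Idh1, the cytosolic NADPH-forming isocitrate dehydrogenase, fell by 1.35 ± 0.23 in males and 1.03 ± 0.23 in females, and Pklr, liver pyruvate kinase, by 1.24 ± 0.28 and 0.91 ± 0.28. Slc25a1, the citrate carrier of mitochondria, fell by 0.79 ± 0.16 in males (adjusted p = 0.00625), beside -0.30 in females (adjusted p = 0.204). Mdh1, cytosolic malate dehydrogenase, rose by 1.45 ± 0.22 in females and 0.72 ± 0.22 in males, and Slc2a2, the liver glucose transporter, rose by 0.83 ± 0.21 in females. With slide as a fixed block the female calls of Idh1 (-0.80, adjusted p = 0.204), Pklr (-0.79, adjusted p = 0.0828) and Slc2a2 (0.74, adjusted p = 0.111) ended. The male Mdh1 call was lost in 15 of 25 alternatives, 9 of them the omission of 1 array, with an adjusted p of up to 0.138, and the female calls of Pklr and Slc2a2 in 9 and 7 of 25 (up to 0.123 and 0.111).

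Of 13 tested genes of chain synthesis, elongation and desaturation, 1 was higher and 2 lower in males and 3 were higher and 2 lower in females. Elovl3, an elongase of very long chains, had -0.75, -1.03 and -4.66 in male dexamethasone and -0.19, 0.31 and -0.83 in female dexamethasone arrays, and was not well above background on any vehicle array of either sex (-6.71, -6.63 and -6.01 in males, -6.44, -5.20 and -5.47 in females). It was at least 5.03-fold higher in males and at least 12.4-fold higher in females, bounds set by the dimmest probe well above background on each vehicle array. Elovl3 thus passed the filter through dexamethasone arrays alone. Its adjusted p (limma, 0.00556 in males and 0.00139 in females) rests on vehicle values not well above background. That p does not measure the bounds, though Elovl3 is among the genes counted as higher. Male dexamethasone 3 stood far below the other 2. Elovl2, which lengthens polyunsaturated chains, fell by 1.54 ± 0.35 in males and 1.76 ± 0.35 in females, and Elovl1 by 0.76 ± 0.18 and 0.75 ± 0.18. Hsd17b12, the ketoacyl reductase of elongation, rose by 2.29 ± 0.53 in females (adjusted p = 0.0111) and was 0.80 ± 0.53 in males (adjusted p = 0.359). In females the slide block ended the calls of Elovl2 (-0.90, adjusted p = 0.121), Elovl1 (-0.34, adjusted p = 0.369), Elovl3 (adjusted p = 0.0644) and Hsd17b12 (2.45, adjusted p = 0.0515). Elovl1 was also lost in males without male dexamethasone 3 (adjusted p = 0.0502).

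Of 17 tested genes of acyl-CoA activation and glycerolipid assembly, 2 were higher and 4 lower in males and 3 higher and 5 lower in females. Gpat2, a relative of Gpam, had -2.06, -2.03 and -1.57 in male dexamethasone against -0.26, 0.02 and -0.69 in male vehicle arrays, and -2.81, -3.55 and -3.94 in female dexamethasone against -0.16, -0.41 and -0.72 in female vehicle arrays. The treatments did not overlap, and Gpat2 was 2.98-fold lower after dexamethasone in males and 8.02-fold lower in females (log2 SE 0.30 each, adjusted p = 0.00472 and 1.06e-04). Its female minus male effect was -1.43 ± 0.43 (adjusted p = 0.358). Lpin2, a second lipin, had -3.07, -3.78 and -3.31 in male dexamethasone against -1.98, -1.91 and -1.47 in male vehicle arrays. It fell by 1.60 ± 0.22 in males and 1.48 ± 0.22 in females, the opposite direction to Lpin1, though the female call ended with slide as a fixed block (-1.37, adjusted p = 0.0587). Acsl3, an acyl-CoA synthetase, fell by 1.53 ± 0.27 in males and 1.60 ± 0.27 in females. Agpat5, an acyltransferase, rose by 1.67 ± 0.40 in males (adjusted p = 0.0143; lost in 3 of 25 alternatives, up to 0.242), beside 0.85 in females. Gpat3 was at least 1.46-fold higher in females, where vehicle arrays were not well above background. Its call (limma, adjusted p = 0.032) was lost in 6 of 24 alternatives (up to 0.34). That p rests on those vehicle values and does not measure the bound.

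Of 6 tested genes of the AMP-activated kinase, which switches off acetyl-CoA carboxylase by phosphorylation, 1 was higher and 2 lower in each sex. The catalytic subunit Prkaa2 rose by 0.82 ± 0.19 in males and 0.71 ± 0.19 in females, while the regulatory subunits Prkab1 (-0.89 ± 0.19 and -0.62 ± 0.19) and Prkag2 (-1.02 ± 0.31 and -1.33 ± 0.31) fell in both. In females the calls of Prkaa2, Prkab1 and Prkag2 were lost in 5, 12 and 1 of 25 alternatives (adjusted p up to 0.104, 0.205 and 0.104), and in males those of Prkab1 and Prkag2 in 1 and 12 (up to 0.0508 and 0.128).

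**Figure D4:**
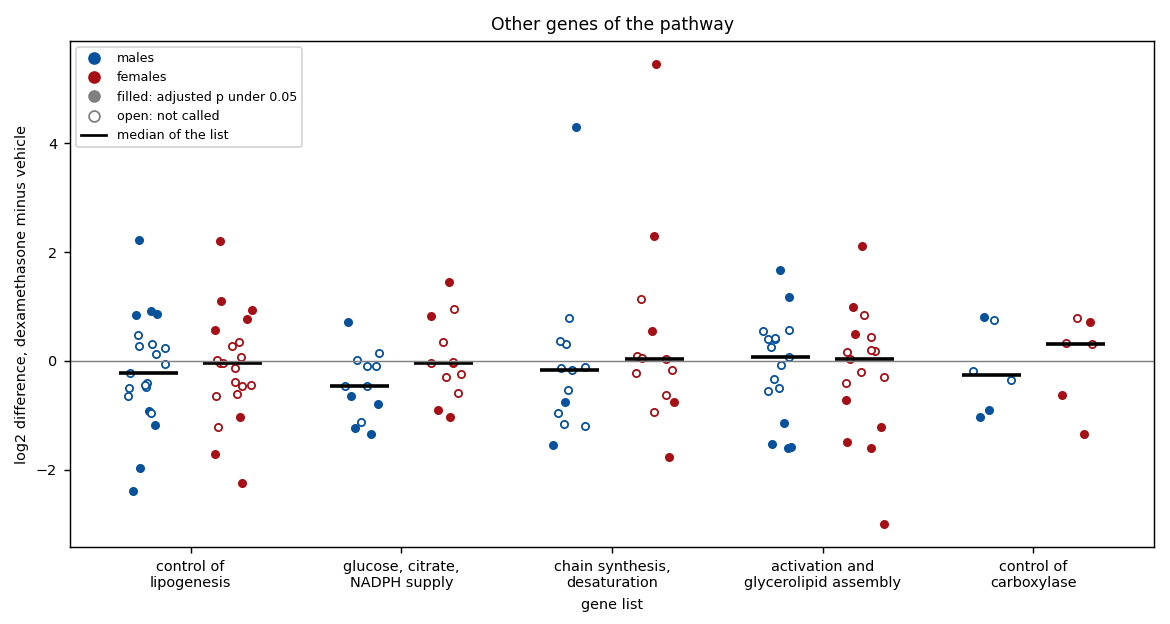
Log2 difference of dexamethasone minus vehicle for the tested genes of 5 lists, males in blue left of females in red; filled points passed the adjusted p of 0.05 and bars are list medians. Every list holds called genes on both sides of 0 in both sexes, and medians lie between -0.45 and 0.32; the top points are Elovl3, whose plotted values are fitted differences and not bounds.

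In the wider pathway 1 of the 69 genes was called higher and 3 lower in females than in males after dexamethasone, where 2.23% of all probes were called. After vehicle 1 was higher and 0 lower, where 1.67% of all probes were called. The genes that follow were chosen after their values were seen. Acsl4, a synthetase with preference for arachidonate, was higher in females than in males after dexamethasone (0.94 ± 0.18, adjusted p = 0.0216) and after vehicle (1.16 ± 0.18, adjusted p = 0.00687). After dexamethasone Scap, the SREBP escort protein (-0.90 ± 0.16, adjusted p = 0.0139), Gpat2 (-1.55 ± 0.30, adjusted p = 0.0268) and Gpat4 (-1.56 ± 0.30, adjusted p = 0.0246) were lower in females than in males. None of the 69 genes was called for a different dexamethasone effect between the sexes (limma). At an unadjusted p under 0.05 there were 10, with no share of all probes given at that p.

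Across the 12 arrays, after each group's mean was removed, the levels of the 9 genes were positively correlated in all 36 pairs, several of them weakly. Pearson's r of these deviations ran from 0.18 for Srebf1 and Me1 to 0.90 for Scd and Me1, and was also low for Srebf1 and Scd (0.23) and Gpam and Lpin1 (0.23), over 12 arrays that share slides and the normalization, and is given as a description. Fasn had the highest median correlation with the others (0.74) and Gpam the lowest (0.44). The heat map shows all pairs.

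**Figure D5:**
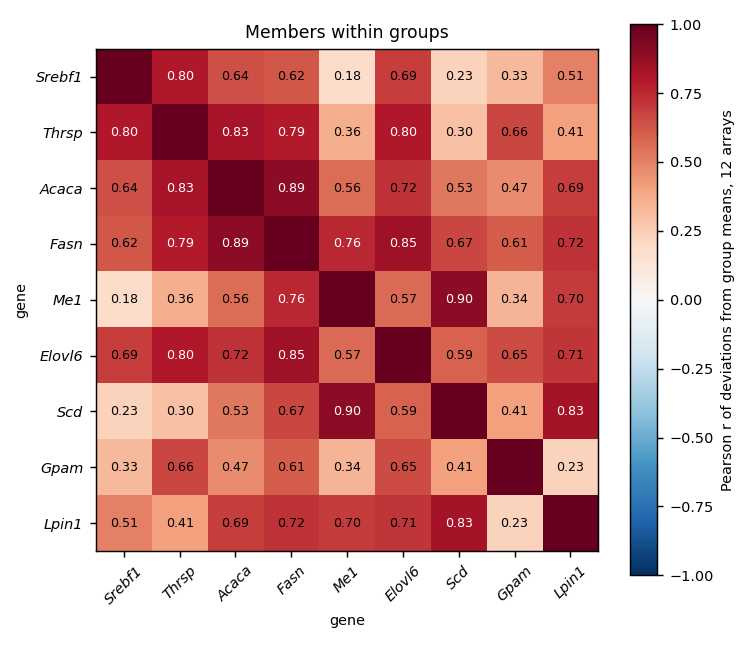
Pearson's r between pairs of the 9 tested genes over 12 arrays, after subtracting each gene's group mean, by colour and number. All pairs lie between 0.18 and 0.90, and the Fasn row is high against Acaca (0.89) and Elovl6 (0.85).

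Over the 12 arrays without that subtraction, the level of the brightest Srebf1 probe correlated most with Nubpl (0.93), Stbd1 (0.92), Zfp800 (0.92), Id4 (0.91) and Map3k8 (0.91) among probes with a gene symbol outside these 10 genes. Among the lipogenic genes the same correlation was 0.80 for Fasn, 0.77 for Gpam, 0.56 for Thrsp, 0.49 for Me1, 0.22 for Scd, -0.05 for Elovl6, -0.43 for Acaca and -0.63 for Lpin1. These values are descriptions over arrays of 4 groups on shared slides.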

How the data were processed

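Liver RNA, pooled from 3 animals per array, was measured on 12 single-colour Agilent arrays in 4 groups of 3. Per the file headers, the authors' scanner files hold spot intensity from Agilent Feature Extraction 9.1.3.1, whose processed signal is already background-corrected. The authors also deposited a value table on a log10 scale, used only as an alternative.

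The log2 of the processed signal had each array's 75th percentile subtracted. Control spots and 211 flagged spots were left out, and repeated spots of a probe were averaged. A probe was kept (28173 were) if 3 or more of the 12 arrays had it well above background and every group had 2 or more usable values. A model of the 4 group means was fitted with limma 3.58.1 in R 4.3.3, with Benjamini-Hochberg adjustment over all kept probes. The brightest tested probe stood for a gene. Symbols were updated from RefSeq where an accession or symbol matched. The fit was also run on simulated arrays with independent noise and no slide effect. That run cannot show how shared slides bear on the calls.

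All genes on the arrays were fitted, and the lipogenic genes and their probes were named in full. Of the wider lists, the genes with the largest called changes per list and sex were named. The members and lists were chosen with earlier results of these data known. The alternatives covered background, normalization, filter, slide and replicate blocks, a fit of 1 sex and the omission of each array.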

Additional observations from a re-analysis of the deposited data

How the results depend on the processing

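No value of the lipogenic genes that passed the test reversed its direction under the alternatives run. The male count of called probes was 5547, and 8978 with slide as a random block. The female count was 6709, and 3595 with slide as a fixed block. Counts of called sex differences after dexamethasone were 629, and 1078 with the random block and 982 with the replicate block. After vehicle they were 470, and 279 with the fixed block, 746 with the random block and 291 without slide 5. The 7 probes called for a different effect between the sexes became 31 with normexp background correction, 12 with the random block, and 0 with array medians subtracted, without the filter or without slide 5. Of the lipogenic genes, 4 were called in males, against 7 with the replicate block and 2 in the fit of 1 sex. In females 2 were called, against 4 with the replicate block and 1 with quantile normalization, no filter, either slide block or the authors' deposited table. After vehicle 0 differed between the sexes, against 1 with the random block and 1 with the replicate block. After dexamethasone 0 differed, against 1 with normexp, median subtraction or either slide block. The cause was not tested.

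Leaving out 1 array gave 4181 to 5934 called probes in males, 4267 to 6856 in females, 0 to 4 for the difference in effect, 302 to 458 after vehicle and 334 to 717 after dexamethasone. For the lipogenic genes it gave 2 to 5 in males, 1 to 3 in females, 0 to 0 for the difference in effect, and 0 to 1 for the sexes at either treatment. Subtracting array medians moved the female median by 0.20 and made 66.8% of the female calls higher, where equal shares of probes (11.9% each) were higher and lower before.

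Replicate numbers 1 and 2 did not clearly pair the arrays, so the replicate block was not used for the values reported. Deviations from group means correlated at over 0.1 in 2 of 6 pairs for number 1, 3 of 6 for number 2 and 6 of 6 for number 3, whose arrays share slide 5, and 8 of 12 arrays correlated best with their own number, which is a hint from the data and not the design. With the replicate block calls were gained by Fasn (adjusted p = 0.0492), Acaca (0.0278) and Elovl6 (0.041) in males, Me1 (0.00812) and Scd (0.0366) in females, and Me1 between the sexes after vehicle (0.0231). Among the second probes they were gained by Acaca in females (0.0435), by Elovl6 in males (0.0161) and between the sexes after vehicle (0.0369), and by Srebf1 (0.0203) and Lpin1 (0.0322) between the sexes after dexamethasone. Slides 2, 3 and 4 gave no within-slide treatment value in 1 sex. Low signal over background limits Srebf1 probe A_42_P667564, and pooled RNA hides the spread between animals.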
